A study of Mus musculus with 4 samples.

Results

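The 10 genes described here encode the main proteins of plasma lipoproteins and the transfer protein that loads them with lipid: Apoa1, Apoa2, Apoa4, Apoa5, Apob, Apoc1, Apoc2, Apoc3, Apoe and Mttp. They were taken by name from the gene probes of the arrays, and all 10 were found, on 16 probes printed as 34 spots, among 28786 gene names in all. The names hold 9 apolipoproteins and Mttp, which is not an apolipoprotein but is needed to assemble the particles. Liver RNA of C57BL/6J mice was compared after food deprivation (FD) and under control conditions, in mothers and in fetuses. Chow and water were otherwise freely given. The 4 groups were FD maternal liver, control maternal liver, FD fetal liver and control fetal liver, each of pooled RNA from 5 to 10 animals. FD RNA was hybridised against control RNA on 2 arrays, with FD in Cy5 on array 1 and in Cy3 on array 2. The titles call these arrays pooled samples 1 and 2. Whether both held the same pools is not stated, and each group was taken here as a single pool. The length of deprivation, the stage of gestation, and whether the fetuses came from the pooled mothers are not stated by the labels.

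The liver exports triglyceride as very low density lipoprotein, a particle built around apolipoprotein B. Microsomal triglyceride transfer protein, the product of Mttp, adds lipid to apolipoprotein B as it enters the endoplasmic reticulum, and poorly lipidated apolipoprotein B is degraded. Smaller apolipoproteins join the particle surface and set its fate: those of the C group and APOA5 act on lipoprotein lipase, APOE binds the receptors that take remnants up, and APOA1 and APOA2 are the main proteins of high density lipoprotein. In a fasting animal, fatty acids released from adipose tissue reach the liver and are in part returned to the blood in these particles.

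Probes of the 3 genes called under FD are shown first, because the values below are those of single 60-base probes. For Apoa5 it is the dimmer of 2 probes, and the brighter one, which stands for the gene in the values below, is not printed. The 5 probes of Apob are given in transcript order, since they did not give the same ratio. All letters are in lower case, as no stretch of a probe is singled out. Apoa4 lies at chr9:46199701-46200444, the Apoa5 probe at chr9:46228623-46228682, and the Apob probes between chr12:7954595 and chr12:7972366, all on the plus strand of build mm7, which the scanner files name. The spans of the Apoa4 probe (744 bases) and of the first Apob probe (2210 bases) are longer than the probes.
Apoa4 A_51_P327491: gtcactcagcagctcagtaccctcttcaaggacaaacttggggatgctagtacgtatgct
Apoa5 A_52_P292404: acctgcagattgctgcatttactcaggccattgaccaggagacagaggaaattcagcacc
Apob A_51_P436690: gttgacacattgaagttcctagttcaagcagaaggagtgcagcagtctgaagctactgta
Apob A_51_P413088: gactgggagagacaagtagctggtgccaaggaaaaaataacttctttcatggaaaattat
Apob A_51_P380650: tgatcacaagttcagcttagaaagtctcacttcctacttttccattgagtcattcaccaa
Apob A_51_P470542: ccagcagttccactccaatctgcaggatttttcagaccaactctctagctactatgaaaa
Apob A_52_P441070: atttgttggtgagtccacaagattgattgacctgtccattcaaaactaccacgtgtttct

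Each value below is a log2 ratio of FD over control from array 1 and then array 2, after correction of background and dye, or a normalized log2 level of one pool. A gene was called where its mean ratio reached 2-fold and neither array fell short of 1.5-fold in that direction. The 2 arrays were taken to hold the same pools, which the labels do not state. Their spread was therefore read as technical, no p-value was given, and the animals' own spread is not seen. All 16 probes were well above background in every pool on both arrays. Over all measured genes the SD between the 2 arrays was 0.16 on the log2 scale in mothers and 0.15 in fetuses. No gene spot was saturated. All 7 hepatocyte markers on the array, among them Alb and Ttr, were well above background in all 4 pools, as the label liver requires.

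In maternal liver, Apoa4 and Apoa5, and no other of the 10 genes, were called higher under FD. Apoa4 was 14.6-fold higher and Apoa5 2.50-fold higher, while Mttp (1.74-fold), Apoa1 (1.49-fold) and Apob (1.49-fold) were above 1 on both arrays without being called. The 2 called genes of 10 stand against 250 of 16147 genes called higher on the same arrays, 1.55%, with 3.43% called in either direction. No member was called lower, against 1.88% of all genes. The median ratio of the 10 genes was 0.45, with 0.65 on array 1 and 0.20 on array 2, against -0.01 for all genes.

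Apoa4 encodes an apolipoprotein of chylomicrons, very low density and high density lipoproteins, which in rodents is made in liver as well as intestine. Its log2 level was 13.94 and 14.26 in FD maternal liver, against 10.05 and 10.42 in control maternal liver. The pools lay far apart on both arrays, with log2 ratios of 3.89 and 3.84, the third highest mean ratio of 16147 genes. Its mean ratio lay between 3.78 (median centring) and 4.04 (the deposited series table) under all alternatives tried. Under median centring the arrays themselves lay far apart, at 5.27 and 2.30, and Apoa4 was still called. Intestine also makes Apoa4, so its markers were read in the same pools. Of 7 intestinal markers on the array, Fabp2, a fatty acid binding protein that liver also makes, was called higher in FD maternal liver (1.19 and 1.53), and Alpi gave -0.11 and -0.20. Cdx1, Cdx2, Fabp6 and Lct were not well above background in any maternal pool, and Vil1 was so in 1 of the 4 maternal channels. The summed level of the list was 10860 and 14577 in FD maternal liver, against 5079 and 5481 in control maternal liver. Only Fabp2 and Alpi were well above background in FD maternal liver, so the rise of this sum is that of Fabp2. The part of intestine in the level of Apoa4 was not tested.

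Apoa5 encodes a scarce plasma protein that promotes the breakdown of triglyceride by lipoprotein lipase. The brighter of its 2 probes read 15.45 and 15.49 in FD maternal liver, against 14.09 and 14.21 in control maternal liver. The log2 ratios were 1.36 and 1.28. The other probe, whose sequence is shown above, gave 0.90 and 1.27, a mean of 1.09, and was called as well. With each array centred on its median in place of the loess curve, the mean of the brighter probe was 1.20 and the call was lost, since the arrays then gave 3.05 and -0.65.

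Mttp, the lipid transfer protein, had log2 levels of 10.97 and 10.85 in FD maternal liver, against 10.05 and 10.16 in control maternal liver. Both FD readings lay above both control readings, which are repeat readings and not replicates. Its ratios were 0.92 and 0.68, a mean of 0.80, short of the 2-fold mark. Apob, the structural protein of the particle, gave 0.82 and 0.32 on its brightest probe, a difference between the arrays larger than the array SD given above. Its 4 other probes are described further on.

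Apoa1, the main protein of high density lipoprotein, was printed 10 times on each array. Its log2 ratio in mothers was 0.70 on array 1 and 0.46 on array 2, with an SD over spots of 0.05 and 0.08. Repeat spots thus lay closer to each other than the arrays did. Apoe, the receptor ligand of remnant particles, was also printed 10 times and gave 0.32 (SD over spots 0.08) and -0.22 (SD over spots 0.08), so that the arrays disagreed on its direction. Apoa2, the second protein of high density lipoprotein, gave 0.51 and -0.23.

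Among the C apolipoproteins no maternal response was called. Apoc2, the cofactor of lipoprotein lipase, gave 0.59 and 0.08. Apoc3, an inhibitor of the same pathway, gave 0.09 and -0.28 on its brighter probe. Apoc1, which restrains lipoprotein uptake and binds transfer enzymes, gave 0.07 and -0.85. In all, 4 members (Apoa2, Apoc1, Apoc3 and Apoe) had maternal ratios of opposite sign on the 2 arrays.

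Those members were among the brightest on the arrays, and the arrays differed most there. For the 313 measured genes with a mean log2 brightness above 14 in mothers, the SD between arrays was 0.25 and the median of array 1 minus array 2 was 0.16. For the 297 such genes in fetuses the SD was 0.27 and the median difference 0.25. In maternal liver 8 members, all but Apoa4 and Mttp, exceeded that brightness. Before correction the red channel of such spots was several times brighter than the green whichever pool it held: the net signal of Apoa1 was 134611 for FD in red and 17039 for control in green on maternal array 1, and 27671 for FD in green and 107963 for control in red on maternal array 2. The part of this dye effect in the ratios of the bright members was not tested.

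**Figure D1:**
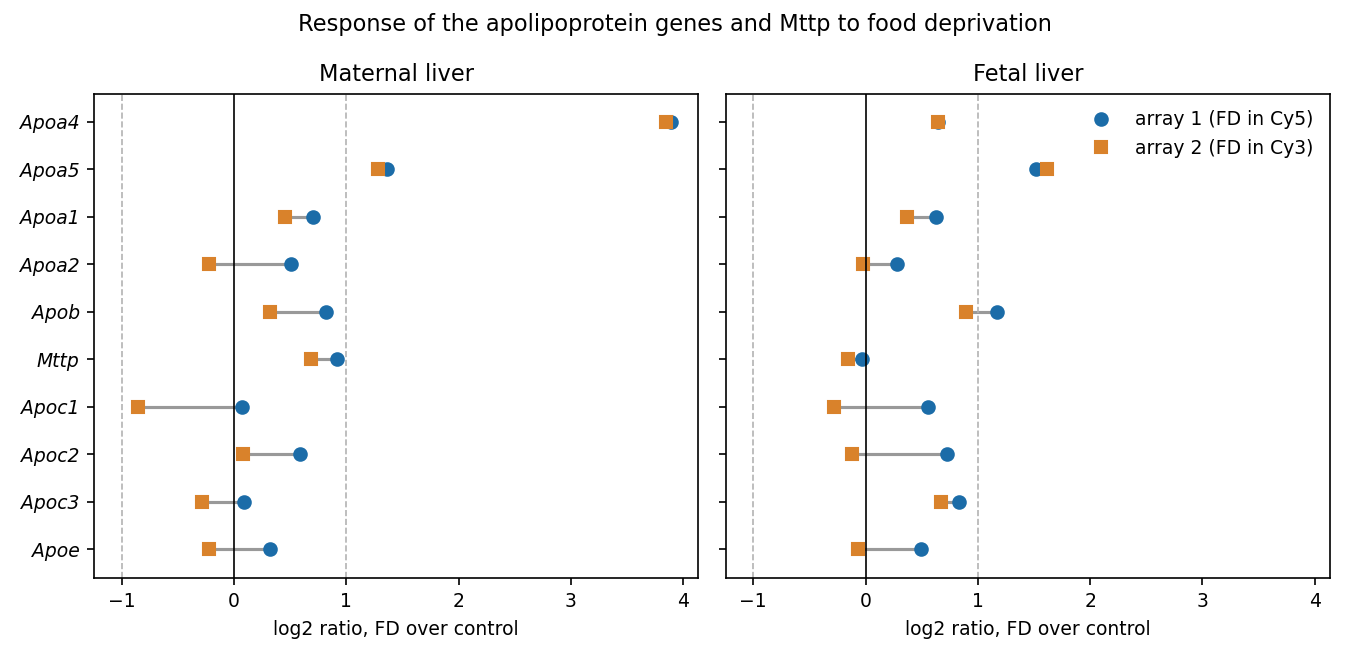
Log2 ratio of FD over control for the 10 genes in maternal liver (left) and fetal liver (right), with 1 point per array and a bar joining the 2 arrays. Dashed lines mark 2-fold. Apoa4 sits at 3.89 and 3.84 in mothers but at 0.65 and 0.64 in fetuses, Apoa5 lies above 1 on both arrays in both, and several bright genes have points on both sides of 0.

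In fetal liver, Apoa5 and Apob were called higher under FD. Apoa5 was 2.96-fold and Apob 2.04-fold higher, while Apoc3 (1.69-fold), Apoa4 (1.56-fold) and Apoa1 (1.41-fold) were above 1 on both arrays without being called. The 2 called genes of 10 stand against 85 of 18055 genes called higher, 0.471%, and 0.737% called in either direction. No member was called lower, against 0.266% of all genes. The median ratio of the 10 genes was 0.40, with 0.64 on array 1 and 0.17 on array 2, against 0.00 for all genes.

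Apoa5 had the sixteenth highest mean ratio of 18055 genes in the fetus. Its brighter probe read 13.85 and 14.02 in FD fetal liver, against 12.33 and 12.40 in control fetal liver. The ratios were 1.51 and 1.62, and the other probe gave 1.46 and 1.36. Both probes were called in fetal and in maternal liver. No other member was called in both.

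Apob read 14.22 and 13.96 in FD fetal liver on its brightest probe, against 13.05 and 13.06 in control fetal liver. Its 2 FD readings lay above the 2 control readings, and the ratios were 1.17 and 0.89. The call was lost on array 2 alone (0.89), under median centring, where the arrays gave 2.46 and 0.16, and when the 5 probes were averaged, which gave 0.60.

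Along the transcript, the 2 Apob probes nearest its 3′ end, which adjoin each other, gave the high ratios in the fetus. In order from the 5′ side, the probes lay 0, 9.23, 13.26, 17.65 and 17.71 kb from the first probe on the genome, introns included. Their fetal ratios were 0.20 and 0.38, 0.00 and 0.87, 0.15 and 0.31, 1.00 and 1.03, and 1.17 and 0.89. Only the last 2 probes were called. In mothers the same probes gave 0.12 and 0.15, 0.20 and 0.60, 0.15 and 0.40, 0.58 and 0.61, and 0.82 and 0.32. The last 2 probes were also the brightest, at a mean log2 brightness of 13.27 and 13.59 in the fetus, against 9.44, 11.78 and 8.73 for the first 3, so position, brightness and probe cannot be told apart. All 5 mean ratios were above 0 in both mothers and fetuses.

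**Figure D2:**
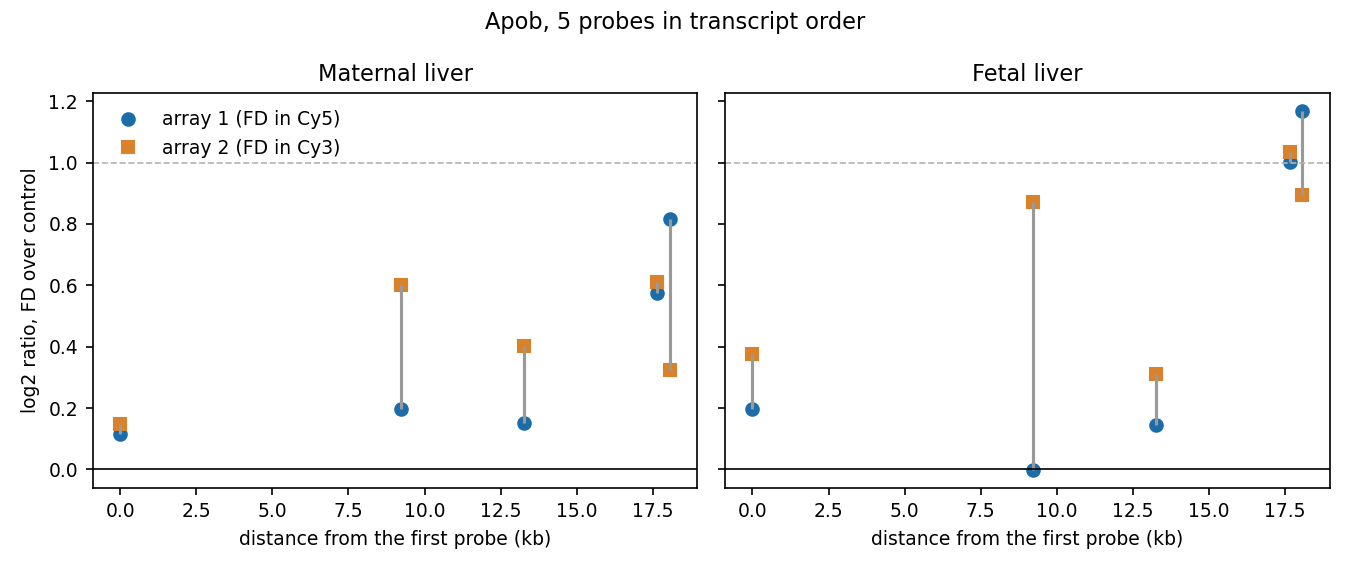
Log2 ratio of FD over control for the 5 Apob probes against their genomic distance in kb from the first probe, in maternal liver (left) and fetal liver (right), with 1 point per array. The last 2 probes adjoin, and the last is drawn slightly to the right so that both can be seen. In fetal liver these 2 lie between 0.89 and 1.17, and the other 3 between 0.00 and 0.87.

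Apoc3 had log2 levels of 11.57 and 11.38 in FD fetal liver, against 10.73 and 10.70 in control fetal liver. Its ratios were 0.84 and 0.67, and a second probe that shares 50 of its 60 bases gave 0.76 and 0.71. The FD readings of the first probe lay above its control readings, and the change was short of 2-fold. Apoa4 was dim in the fetus, with net signals of 246 and 91 in FD fetal liver, against 43 and 111 in control fetal liver, the red channel being the brighter on each array. Its ratios were 0.65 and 0.64. The offset of 50 added during background correction is of the size of these signals, and on the scanner software's own processed signals, which were not given this offset, the mean fetal ratio was 1.25 and it was called.

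Apoa1 gave 0.63 and 0.37 in the fetus, with an SD over spots of 0.05 and 0.08. Apoe gave 0.50 and -0.07, Apoa2 0.28 and -0.02, Apoc1 0.55 and -0.28, and Apoc2 0.73 and -0.12. These last 4 genes disagreed in sign between the arrays, and each had a mean brightness above 14 in the fetus. Mttp gave -0.03 and -0.16, a mean of -0.09 that turned to 0.08 under median centring. Its log2 levels were 8.93 and 8.87 in FD fetal liver, against 8.96 and 9.03 in control fetal liver.

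**Figure D3:**
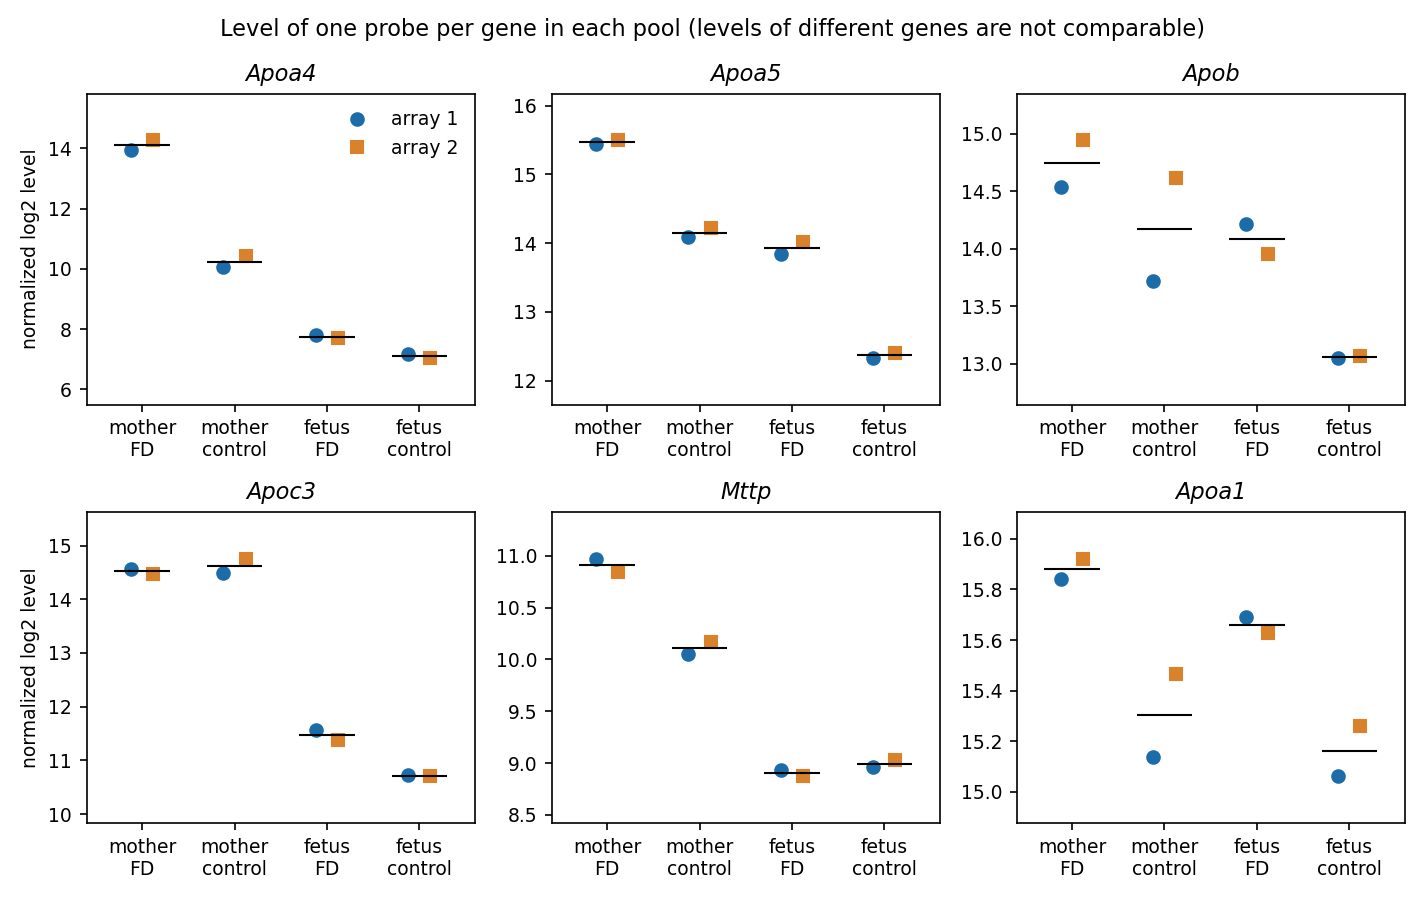
Normalized log2 level of 6 genes in the 4 pools (maternal FD, maternal control, fetal FD, fetal control), with 1 point per array and a line at the mean. Each panel has its own axis, which does not start at 0, and levels of different genes cannot be compared. Apoa4 is highest in FD maternal liver, lower in control maternal liver and lowest in the fetal pools, which lie much closer together than the maternal ones. The Mttp points of FD and control lie apart in mothers and close together in fetuses.

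Setting the maternal response against the fetal one, array by array within a dye orientation, Apoa4 alone of the 10 genes differed by the rule. Its response was higher in mothers by 3.24 and 3.20 on the log2 scale, the fourth highest of 15597 genes, and by 2.73 on the processed signals, where the fetal ratio was larger. The 1 called member of 10 stands against 192 of 15597 genes called higher in mothers, 1.23%, and 2.99% called in either direction. No member was called lower, against 1.76% of all genes. Mttp followed with 0.95 and 0.84, a mean of 0.89, which reached 1.02 and the call on the processed signals. At the other end, with lower ratios in mothers, Apoc3 differed by -0.75 and -0.96, Apoc1 by -0.48 and -0.57, and Apob by -0.35 and -0.57, none of them called. Apoa5 differed by -0.15 and -0.34. Apoa1 (0.07 and 0.09) and Apoe (-0.17 and -0.16) gave nearly the same difference on both pairs of arrays. Their ratios differed between array 1 and array 2, in mothers and in fetuses. Under median centring the means of Apoa1, Apoa2 and Apoc2 turned from above to below 0, at -0.37, -0.39 and -0.40.

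Without deprivation, 5 of the 10 genes were called higher in control maternal than in control fetal liver, and none lower. Of 18084 genes 8.94% were called higher, 10.4% lower and 19.3% in either direction. Apoc3 differed most, with log2 levels of 14.48 and 14.75 in control maternal liver, against 10.73 and 10.70 in control fetal liver, a 14.9-fold difference. Its second probe gave a mean difference of 4.09, against 3.90 for the first. Apoa4 was 8.74-fold higher (2.89 and 3.37), and the processed signals gave a larger mean of 4.54 for this gene, dim in the fetus. Apoa5 was higher by 1.75 and 1.81 on its brighter probe, 3.44-fold, and by a mean of 3.06 on the other probe, so the probes agreed on direction and not on size.

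Apob and Mttp, which act together in particle assembly, were 2.17-fold and 2.16-fold higher in control maternal liver. Mttp gave 1.09 and 1.14, a narrow spread. Apob gave 0.67 and 1.56, and its call was lost under median centring (1.33), on the processed signals (0.93) and on array pair 1 alone (0.67). All 4 of its other probes had means between 1.12 and 1.49. The remaining members lay closer together: Apoc1 gave 0.74 and 0.41, Apoa2 0.53 and 0.48, Apoe 0.12 and 0.74, Apoa1 0.08 and 0.21, and Apoc2 0.19 and -0.07. In order of mean difference the 10 genes ran Apoc3, Apoa4, Apoa5, Apob, Mttp, Apoc1, Apoa2, Apoe, Apoa1 and Apoc2. Apob and Mttp, or any neighbours from Apoc1 to Apoc2, differed by less than the distance between the arrays of the more variable gene of the pair.

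The 2 livers differ in their cells. Fetal liver is a site of red cell formation, and all 9 erythroid markers measured were lower in control maternal liver, with a median of -4.31, as were all 5 fetal hepatocyte markers, with a median of -7.31. Of the 7 hepatocyte markers 1, Hnf4a, was called higher in control maternal liver, and their median was 0.33. Of 5 adult hepatocyte markers measured, 4 (Cyp2e1, Mup1, Glul and Cyp1a2) were called higher in control maternal liver, as were 5 members, and the median of the list was 3.06. In RNA of whole liver, fewer cells of a type and less RNA per cell cannot be told apart. Under FD the erythroid list had a median of -0.24 in the fetus and -0.08 in mothers, with none of its genes called. The hepatocyte list had a median of -0.02 in the fetus, with none called, and 0.23 in mothers, with 1 of 7 called lower. Its medians on array 1 and array 2 were 0.37 and -0.50 in the fetus and 0.24 and -0.25 in mothers. The adult hepatocyte list moved more. In FD fetal liver, Cyp2e1 (1.32 and 1.06) and Tat (2.23 and 1.77) were called higher among 4 measured, and the list's median was 1.08. Its summed level was 15299 and 12843 in FD fetal liver, against 6663 and 7116 in control fetal liver. In mothers Cyp7a1 (-2.11 and -2.06) and Cyp1a2 (-1.34 and -1.32) were called lower among 5 measured, with a median of -0.81, and a summed level of 102278 and 48362 in FD maternal liver, against 89432 and 90646 in control maternal liver. For the difference of responses all 3 measured (Cyp2e1, Cyp7a1 and Glul) were called lower in mothers, with a median of -1.30. The part of cell makeup in the results above was not tested.

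**Figure D4:**
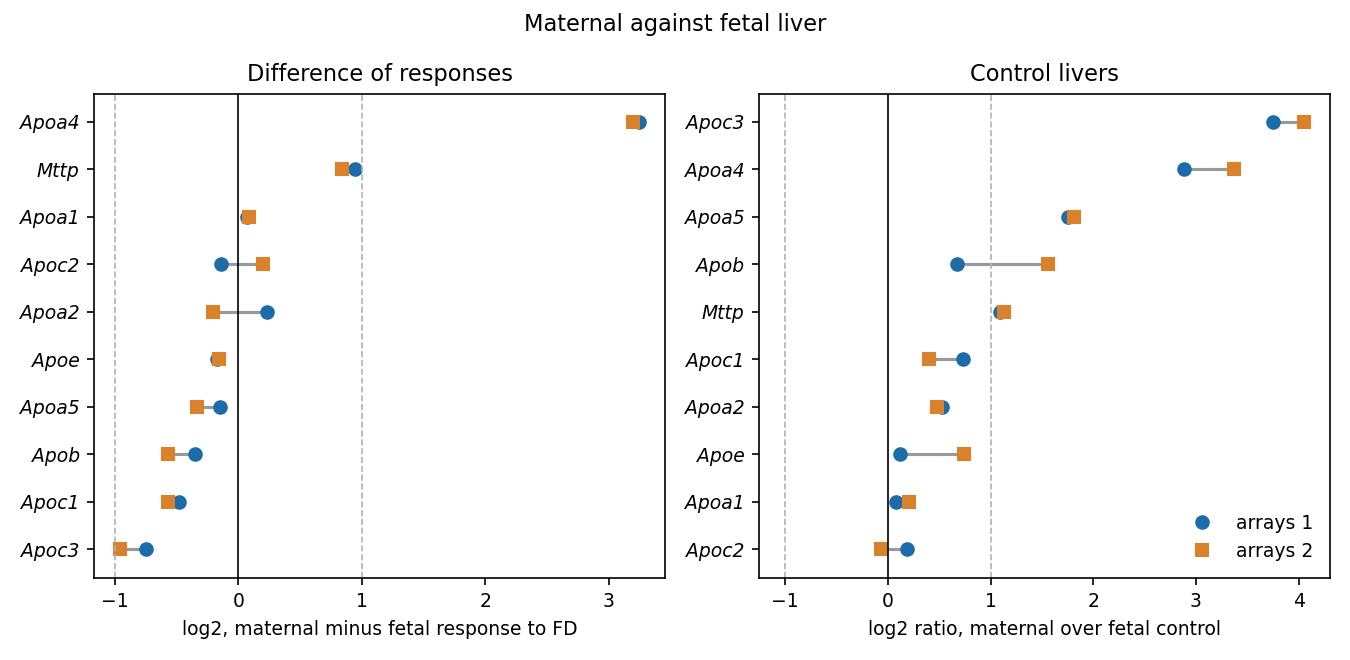
Maternal minus fetal response to FD (left) and control maternal over control fetal level (right) for the 10 genes, in log2, with 1 point per pair of arrays of the same dye orientation and dashed lines at 2-fold. Apoa4 stands apart on the left at 3.24 and 3.20, and Apoc3 and Apoa4 lead on the right.

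The genes lie in 2 clusters and on 3 chromosomes besides. Apoa1, Apoc3, Apoa4 and Apoa5 are neighbours on chromosome 9, in that order in the RefSeq annotation of GRCm38.p6, and gave mean maternal responses of 0.58, -0.10, 3.87 and 1.32 and mean fetal responses of 0.50, 0.75, 0.65 and 1.57. Neighbouring genes of this cluster thus differed widely in the mother, and lay between 0.50 and 1.57 in the fetus. On chromosome 7, Apoc2, Apoc1 and Apoe lie close together with Apoc4. None of these 3 was called in any comparison, and Apoc4, which is no member, gave 0.03 and 0.09 in mothers.

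The 250 bases before the RefSeq start of the 3 genes called under FD are shown for their short motifs, since Apoa4 and Apoa5 were called together in the mother and Apoa5 and Apob in the fetus. They were read from RefSeq on GRCm38.p6, plus strand, 5′ to 3′, at chr9:46240594-46240843 (Apoa4), chr9:46268358-46268607 (the first of 2 starts of Apoa5) and chr12:7977427-7977676 (Apob). Capitals mark matches on either strand to CAAAG (the core of HNF4A sites), CACGTG (an E-box) and TATAAA (the TATA box).
Apoa4: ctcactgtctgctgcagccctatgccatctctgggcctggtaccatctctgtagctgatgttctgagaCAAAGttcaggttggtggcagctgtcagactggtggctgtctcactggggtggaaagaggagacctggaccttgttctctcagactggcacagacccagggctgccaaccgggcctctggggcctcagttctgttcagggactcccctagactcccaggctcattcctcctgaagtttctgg
Apoa5: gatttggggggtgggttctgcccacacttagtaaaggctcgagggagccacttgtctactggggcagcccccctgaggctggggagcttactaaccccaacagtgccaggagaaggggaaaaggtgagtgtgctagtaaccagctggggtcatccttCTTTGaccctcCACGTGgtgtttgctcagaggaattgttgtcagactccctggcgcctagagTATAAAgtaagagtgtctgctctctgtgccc
Apob: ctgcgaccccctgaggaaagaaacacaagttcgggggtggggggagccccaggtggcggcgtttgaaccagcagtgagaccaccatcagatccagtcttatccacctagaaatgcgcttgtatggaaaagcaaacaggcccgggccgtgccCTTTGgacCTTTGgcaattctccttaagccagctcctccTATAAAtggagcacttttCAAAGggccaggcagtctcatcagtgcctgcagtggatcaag

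CAAAG lies 182 bases before the start in Apoa4, 93 in Apoa5 (as its reverse complement CTTTG), and 99, 91 and 42 in Apob, and it occurs in 48.6% of all 32851 promoters of this length. CACGTG lies 82 bases before the start of Apoa5 (6.02% of promoters), and TATAAA 31 before that of Apoa5 and 60 before that of Apob (12.4% of promoters). AGGTCA (bound by nuclear receptors, 14.0%), TGACG (from the cyclic AMP response element, 17.8%) and GTAAACA (the FOXO and FOXA core, 3.17%) were also searched on both strands and are not in these 3 windows. No marked matches overlap each other. Promoters of 8 members were in the table, all but Apoc1 and Apoc3. A match is a run of letters and no evidence of binding.

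Of the genes measured in both mothers and fetuses (12171 with a RefSeq symbol), those nearest to Apoa4 by Euclidean distance over the 4 ratios were Acot1, a fatty acyl-CoA hydrolase, at 0.59, Igfbp1 at 1.19 and Ppp1r3g at 1.27. Acot1 gave 3.85 and 3.78 in mothers and 0.80 and 1.21 in fetuses. Nearest to Apoa5 were Angptl4, an inhibitor of lipoprotein lipase, at 0.28, Retreg1 at 0.34 and Txnip at 0.45. Nearest to Apob were Odf2 at 0.24 and Coa6 at 0.31. These distances describe 4 arrays, taken as 2 pairs of pools.

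The wider pathway, 96 other genes in 5 lists, was read in the same way. In mothers 3 of the 85 measured were called higher and 9 lower, where 1.55% and 1.88% of all genes were. In fetuses 2 of 87 were called higher and 2 lower, where 0.471% and 0.266% of all genes were. The median of these genes was -0.24 in mothers and 0.06 in fetuses.

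Among genes of lipoprotein secretion and partners of Mttp, 1 of 17 measured was called in mothers and none of 16 in fetuses. The called gene, Pdia3, a protein disulfide isomerase of the endoplasmic reticulum, gave -1.11 and -0.89 in mothers and was not measured in fetuses. P4hb, which encodes the small subunit that pairs with the Mttp product, gave -0.49 and -0.29 in mothers and -0.26 and -0.30 in fetuses. Sar1b, which buds the vesicles that carry lipoproteins from the endoplasmic reticulum, gave 0.03 and -0.13 in mothers. Tm6sf2, needed for full lipidation of the particle, gave -0.68 and -0.26 in mothers but 0.62 and 0.70 in fetuses, and the difference of its responses was called (-1.30 and -0.96).

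From the list of other apolipoproteins, 15 genes were measured in mothers and 15 in fetuses. Of these, 3 were called lower in mothers and none was called in fetuses. The 3 were Apol7a (-2.65 and -2.47), Apol9b (-1.27 and -1.44) and Saa4 (-1.51 and -1.59), the last an apolipoprotein of high density lipoprotein. The median of the measured genes was -0.28 in mothers and 0.07 in fetuses. The list also holds Apol and Apoo genes, and whether their products are carried on lipoproteins was not examined. Apom, which carries sphingosine phosphate on high density lipoprotein, gave -0.19 and -0.37 in mothers.

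Of 15 lipases, their partners and enzymes of high density lipoprotein, 1 was called higher and 2 lower in mothers. In fetuses 2 were called higher and 1 lower. Angptl4 was higher in both, at 1.30 and 1.15 in mothers and 1.72 and 1.51 in fetuses. Lipc, hepatic lipase, was lower in mothers (-1.20 and -1.09), and Abcg5, a sterol exporter, higher in fetuses (1.01 and 1.21).

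Of the 14 lipoprotein receptors measured in mothers, 1 was called higher and 1 lower. The higher one was Cd36, a scavenger receptor for fatty acids and lipoproteins (1.95 and 1.74). None of the 17 measured in fetuses was called. Of 24 transcription factors known to act on apolipoprotein genes, Cebpb was called higher in mothers (1.08 and 1.13), and Srebf1 (-2.71 and -2.67) and Srebf2 (-1.30 and -1.05), which drive lipid and sterol synthesis, lower. In fetuses Srebf1 alone was called, lower, at -1.16 and -1.12. Creb3l3, a liver factor that responds to fasting, gave 0.74 and 0.87 in mothers and 0.34 and 0.38 in fetuses, and Hnf4a 0.24 and 0.30 in mothers and 0.32 and 0.25 in fetuses, neither of them called.

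Of other cells in the tissue, macrophages also make Apoe. Their 8 markers had a median of -0.56 in FD maternal liver, with Adgre1 and Cd5l called lower, and a summed level of 13256 and 12313 in FD maternal liver, against 21974 and 20676 in control maternal liver. In fetal liver the summed level was 31119 and 32177 under FD, against 34416 and 31251 in controls, and the median was -0.01. The part of these cells in the values of Apoe was not tested.

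**Figure D5:**
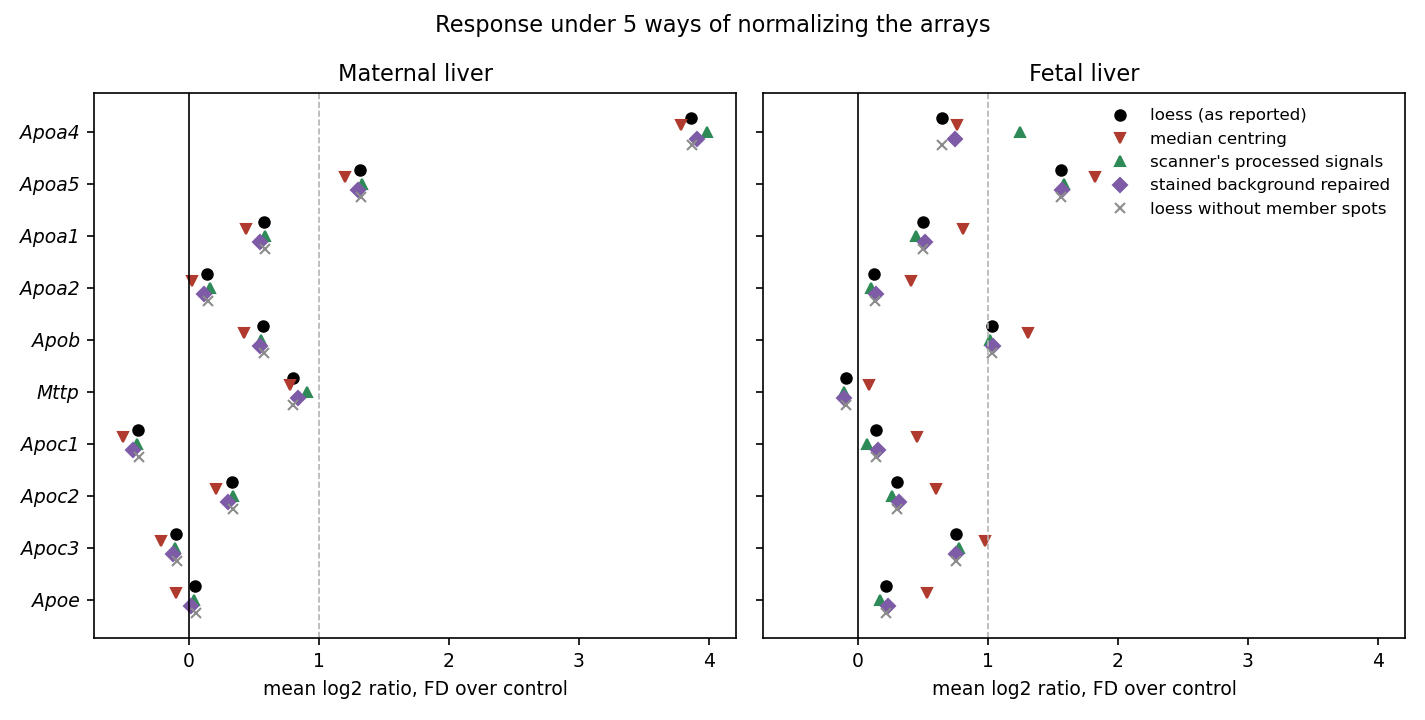
Mean log2 ratio of FD over control for the 10 genes in maternal liver (left) and fetal liver (right) under 5 ways of normalizing the arrays, with a dashed line at 2-fold. The mean points of a gene lie close together, except that median centring places bright genes higher in fetuses (Apoa1 at 0.81, against 0.50 with loess) and the processed signals place fetal Apoa4 at 1.25. The means do not show the distance between the arrays, which was wide under median centring (maternal Apoa5 at 3.05 and -0.65).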

How the data were processed

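Pooled RNA of 4 groups (FD and control, maternal and fetal liver) was measured on 4 two-colour arrays of 1 slide. The deposited scanner files hold intensity per spot and dye, made with Agilent Feature Extraction (9.5.1.1 per the file headers, 9.5.3.1 per the submitters' processing notes). Their deposited log10 ratios of red over green processed signal were not used further. The deposited series table holds scores that match red over green processed signals to 2 decimals, with a negative sign throughout on 2 arrays. Its direction is not stated, so it served only as an alternative.

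Here, mean signals were corrected against local background (normexp, offset 50) and dye bias removed by a loess curve fitted on gene spots (limma 3.58.1, R 4.3.3). Outlier spots (215 to 257 per array) were left out, the spots of a probe averaged, and ratios turned to FD over control. Levels came from Aquantile scaling between arrays. Probes well above background in the FD or the control channel on both arrays were kept, and the brightest probe stood for its gene. A RefSeq match of the accession gave the name of 22951 of 41174 gene probes, and the rest kept the files' name. Spots well above background made up 53.2% to 69.7% of gene spots per channel. The number of arrays limits the technical precision of a ratio. With each condition counted as 1 pool, the spread between animals is not seen.

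The comparisons were FD over control in mothers and in fetuses, the difference of these responses, and control maternal over control fetal liver. The 2 dye-swapped arrays were taken to hold the same pools and counted as 1 replicate, and no test was run. The procedure was tested on simulated data. Named genes are the 10 members, the called genes of the lists with a few of known role chosen after their values were seen, and up to 3 nearest genes to each member called under FD. Some genes that these rules name are not reported here. Members and lists were chosen with earlier results of these data known.

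Alternatives were median centring, processed signals, repaired background stains, a mean over probes, no or a stricter filter, the series table, each array left out, and, added after seeing the data, a loess fitted without member spots.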

Additional observations from a re-analysis of the deposited data

Results flagged for a closer look

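The response of Mttp had opposite directions in mothers and fetuses on every array. Its log2 ratio of FD over control was 0.92 and 0.68 in maternal liver and -0.03 and -0.16 in fetal liver, a maternal minus fetal difference of 0.89. The difference was not tested, because the arrays were counted as 1 pool per condition. The fetal mean of -0.09 was smaller than the SD between arrays of 0.15 over all fetal genes, and it was 0.08 under median centring.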

How the results depend on the processing

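No paired analysis was possible because each condition was counted as 1 pool, the replicate number marks the dye orientation, and no test was run. A log2 ratio of the 10 genes was counted as moved where it shifted by more than the SD of that gene's own 2 arrays. This is not the SD over all genes. The moved ratios were 24 of 40 under median centring, 9 of 40 on the processed signals and 6 of 40 with stained background repaired. They were 5 of 40 with the mean over probes and 2 of 20 in the series table. A loess fitted without the member spots, which was chosen after seeing the data, moved 0 of 40. The filters left the members' values as they were. With 2 arrays, leaving 1 out cannot move a mean by more than the gene's own SD, so it could not be counted as moved. No called value changed sign under any of these. Median centring moved the counts too. It left 1 of the 10 genes called in mothers (Apoa4) and 1 in fetuses (Apoa5), and 129 genes in all in mothers, against 554. The share of all calls that were higher was then 34.9% in mothers, against 45.1% with loess, 75.8% in fetuses, against 63.9%, and 16.1% for the difference of responses, against 41.2%. On the processed signals 1472 genes were called in mothers, 405 in fetuses, 1205 for the difference (against 466) and 7309 for the control livers (against 3497), with 2 members called for the difference (Apoa4 and Mttp). The series table gave 1476 in mothers and 406 in fetuses, against 133 with loess. The mean over probes left 1 member called in fetuses. Leaving out each array in turn gave 1 to 2 members called in fetuses, Apob being lost on array 2 alone. The cause was not tested. Signal close to background limits the fetal values of Apoa4, and the spread between arrays above a log2 brightness of 14 limits those of the brightest members.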
